A study of Mus musculus with 12 samples.

Results

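Keratin genes were examined tumor by tumor in 12 subcutaneous mouse tumors. Members were all symbols in the deposited tables that consist of Krt followed by a number and at most 1 letter and that had an FPKM (a count of fragments scaled for gene length and library size) above 0 in at least 1 tumor. The tables hold 51 such symbols. Of these, 39 were members and 12 were at 0 in all 12 tumors (Krt9, Krt12, Krt31, Krt32, Krt33b, Krt35, Krt39, Krt40, Krt42, Krt74, Krt81 and Krt82). Across the series, 22912 of 34678 symbols were above 0 in at least 1 tumor. The tumors grew in C57BL/6 mice from LLC1-shLkb1 cells, a Lewis lung carcinoma line in which a short hairpin RNA lowers Lkb1 (Stk11). All 4 arms therefore carried the knockdown, and no arm without the hairpin was included. Each arm comprised 3 tumors from different mice, given vehicle, palbociclib (a CDK4/6 inhibitor), anti-PD-1 antibody or the combination. According to the methods, the mice were 5 to 8 weeks old when obtained and of both sexes, and the vehicle arm received control immunoglobulin. Palbociclib was given at 100 mg/kg by mouth for 3 days of every 7-day cycle and anti-PD-1 at 200 µg per mouse. Treatment began 7 days after injection and lasted 2 weeks.

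Keratins are the intermediate filaments of epithelial cells, and a filament needs a type I keratin paired with a type II keratin. Single-layered epithelia pair Krt8 with Krt18, often together with Krt7 and Krt19. In the epidermis, basal keratinocytes pair Krt5 with Krt14, the layers above pair Krt1 with Krt10, and Krt6a, Krt6b, Krt16 and Krt17 belong to hair follicles and to stressed or healing epidermis. Krt25 to Krt28 and Krt71 to Krt73 build the inner root sheath that surrounds a growing hair, and further keratins build the hair shaft. Carcinoma cells that become mesenchymal often carry vimentin (Vim) filaments beside keratins or in place of them.

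Of the 39 members, 6 were simple epithelial keratins, 18 belonged to the epidermal and other stratified keratins, 8 to the inner root sheath and companion layer and 6 to the hair shaft, and Krt222 fell in none of these classes. The range of symbols from Krt25 to Krt86 held 19 members, among them Krt76 to Krt80, which are not hair keratins. On GRCm38, 18 members lie on chromosome 11 and 21 on chromosome 15. Only 4 members (Krt7, Krt8, Krt20 and Krt80) were above 0 in all 12 tumors, and 12 were above 0 in a single tumor. The highest value of a member lay in palbociclib tumor 2 for 19 genes and in palbociclib tumor 1 for 11. It lay in combination tumor 1 for 5, in anti-PD-1 tumor 1 for 2, and in vehicle tumor 2 and combination tumor 2 for 1 each.

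**Figure D1:**
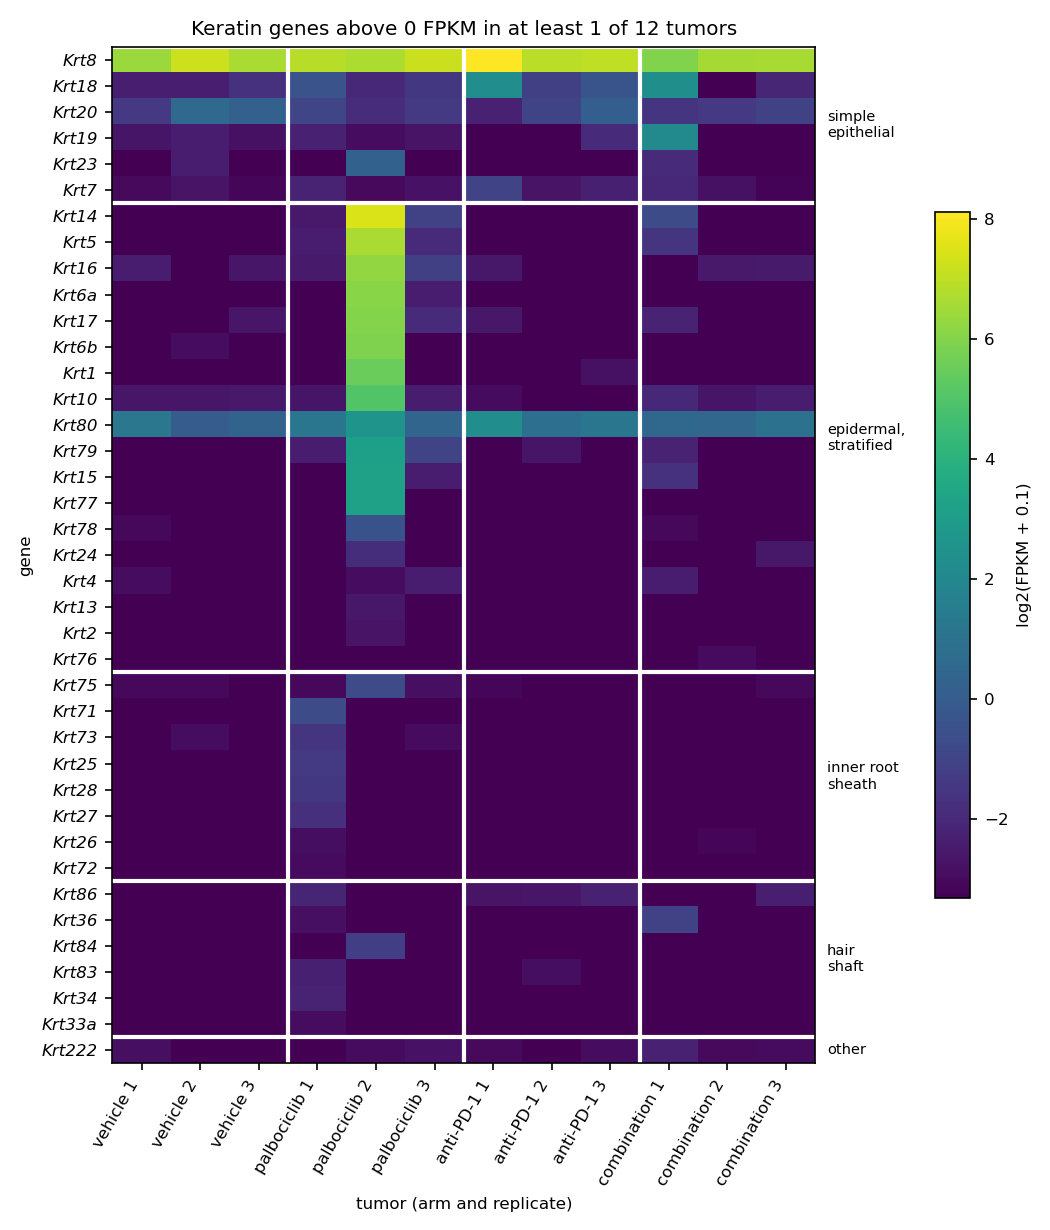
Level of the 39 keratin genes (rows, by class) in the 12 tumors (columns, by arm), as log2(FPKM + 0.1). Krt8 was high throughout, and most epidermal keratins, but not Krt80, Krt4 or Krt76, were highest in palbociclib tumor 2. The inner root sheath keratins were above 0 mainly in palbociclib tumor 1, except Krt75 of the companion layer, which was highest in palbociclib tumor 2.

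The sequences just before the start of 9 members are given as examples: the simple epithelial neighbors Krt8 and Krt18, the gut keratin Krt20, the epidermal Krt5 and Krt10, and 4 inner root sheath keratins. They come from RefSeq (GRCm38.p6), run 5′ to 3′ on the strand of the gene and stop before the start of transcription. In 6 of them the last base is the one before the RefSeq start. For Krt8, Krt18 and Krt71, GENCODE M21 places the start further upstream, and these windows end 140, 36 and 12 bases before the RefSeq start. They are therefore not aligned with the other 6 windows on that start. Capitals mark TATAAA, the core of a TATA box, wherever it occurs on either strand.
Krt8 (chr15:102004483-102004592, minus strand): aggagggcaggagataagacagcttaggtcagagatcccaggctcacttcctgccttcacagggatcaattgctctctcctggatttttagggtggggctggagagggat
Krt18 (chr15:102028070-102028179, plus strand): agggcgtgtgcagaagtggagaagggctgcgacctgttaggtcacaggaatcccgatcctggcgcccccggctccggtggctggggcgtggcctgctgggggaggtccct
Krt20 (chr11:99438154-99438233, minus strand): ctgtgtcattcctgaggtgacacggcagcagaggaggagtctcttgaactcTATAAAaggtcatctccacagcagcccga
Krt5 (chr15:101712906-101712985, minus strand): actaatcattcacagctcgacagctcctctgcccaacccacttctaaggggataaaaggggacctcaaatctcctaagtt
Krt10 (chr11:99389365-99389444, minus strand): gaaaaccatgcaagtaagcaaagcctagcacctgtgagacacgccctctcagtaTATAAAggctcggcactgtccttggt
Krt25 (chr11:99322952-99323031, minus strand): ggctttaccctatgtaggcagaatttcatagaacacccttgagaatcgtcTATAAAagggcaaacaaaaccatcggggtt
Krt28 (chr11:99374904-99374983, minus strand): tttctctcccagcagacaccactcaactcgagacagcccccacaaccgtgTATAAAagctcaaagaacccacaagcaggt
Krt71 (chr15:101743110-101743189, minus strand): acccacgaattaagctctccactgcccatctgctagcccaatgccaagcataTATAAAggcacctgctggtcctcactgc
Krt73 (chr15:101802361-101802440, minus strand): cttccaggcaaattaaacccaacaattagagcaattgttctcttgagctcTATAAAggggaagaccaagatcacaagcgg

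RefSeq windows were at hand for 26 of the 39 members. In the 80 bases before the RefSeq start, TATAAA occurred in 6 of 7 inner root sheath keratins (not in Krt72) and in 4 of the 19 other members with a window (Krt10, Krt20, Krt34 and Krt76). The same letters occurred in 4.75% of all 32851 promoter windows of that length. Counted back from the RefSeq start, their first base lay at 30 bases in Krt25, Krt26, Krt28 and Krt73, at 40 in Krt71 and at 15 in Krt27. Over 250 bases, GGGCGG (the core of a GC box) was present in 2 of 26 members, Krt7 and Krt75, and in 32.7% of all windows. TGANTCA (an AP-1 motif), also searched on both strands, was found in Krt13 alone and in 6.75% of all windows. These are matches of letters and no measure of binding.

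Depth was similar across the tumors, at an estimated 14900000 to 20300000 fragments, and at this depth 3 fragments on a gene of 1.5 kb amount to between 0.0986 and 0.134 FPKM. Stk11, the knocked-down gene, measured 7.90 to 11.5 FPKM, and no tumor without the hairpin was among the 12. Of the lung epithelium genes, Sftpa1, Sftpc, Sftpd, Nkx2-1 and Scgb1a1 were at 0 in all 12 tumors, and Sftpb and Foxj1 did not exceed 0.118 FPKM. The other 3 of the 10 genes in that list were above 0 in every tumor, Hopx at 6.83 to 31.1 FPKM, Napsa at 1.07 to 2.504 and Ager at 0.0818 to 0.473. Other tissues were uneven. Adipocyte genes summed to 997 FPKM in combination tumor 1 and 413 in palbociclib tumor 1, against at most 38.1 elsewhere, and skeletal muscle genes to 200.3 in palbociclib tumor 3 and 187 in combination tumor 2.

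Among the simple epithelial keratins, Krt8 was present at a high level in every tumor. Krt8 (chr15:101996698-102004482, minus strand), the type II keratin of simple epithelia, measured 84.1, 152 and 102 FPKM in the vehicle tumors and 119, 106 and 147 with palbociclib. It measured 276, 121 and 129 FPKM with anti-PD-1 and 62.0, 95.1 and 97.7 with the combination. The combination tumors thus lay below all 3 palbociclib tumors and all 3 anti-PD-1 tumors but overlapped with vehicle, and anti-PD-1 tumor 1 stood above all others. In bulk RNA, fewer cells of a type and less RNA per cell cannot be told apart, here and for the genes that follow. Arm means were 113 ± 35.4 FPKM for vehicle, 124 ± 21.3 for palbociclib, 175 ± 87.5 for anti-PD-1 and 84.9 ± 19.9 for the combination (SD, n = 3 each). Krt8 was the single tested member of 17 whose combination values lay wholly below anti-PD-1, a pattern seen in 7.49% of all 15350 genes tested, and likewise below palbociclib, seen in 9.15%.

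None of the differences in Krt8 passed the test (limma on log2(FPKM + 0.1), Benjamini-Hochberg adjustment over all genes tested). Anti-PD-1 against vehicle gave 0.57 on the log2 scale (SE 0.32, adjusted p = 0.647), and 0.19 without anti-PD-1 tumor 1. The palbociclib effect, which averages palbociclib minus vehicle and combination minus anti-PD-1, was -0.40 (SE 0.23, adjusted p = 0.339), and -0.21 without that same tumor. The interaction, which is the effect of palbociclib with anti-PD-1 minus its effect without, was -1.13 (SE 0.46, 95% interval -2.14 to -0.13, unadjusted p = 0.0304 and adjusted p = 0.866 by limma). It moved to -0.75 without anti-PD-1 tumor 1. Reads from Krt8 may be shared with its processed pseudogene Krt8-ps on chromosome 7, since 21.97% of the 75-base windows of Krt8 transcripts also occur there.

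Krt18, the type I partner of Krt8, was low by comparison. Krt18 (chr15:102028180-102032027, plus strand) lies 23697 bases from Krt8 on the same chromosome. It measured 0.092, 0.093 and 0.211 FPKM in vehicle tumors, 0.661, 0.144 and 0.259 with palbociclib, 4.81, 0.350 and 0.694 with anti-PD-1 and 5.08, 0 and 0.132 with the combination. Values near 5 FPKM occurred in anti-PD-1 tumor 1 and combination tumor 1, and the other 10 tumors were below 1. These rest on an estimated 129 and 114 fragments, against at most 18 in each of the other tumors. All 3 anti-PD-1 values were above all 3 vehicle values, as in 4.25% of the genes tested. The difference was 2.42 on the log2 scale (SE 1.27, adjusted p = 0.627 by limma) and 1.40 without anti-PD-1 tumor 1. Krt8 exceeded Krt18 between 57.4-fold and 1644-fold in 10 tumors, by 12.2-fold in combination tumor 1, and in combination tumor 2 Krt18 was listed at 0.

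Krt19, a type I keratin without the usual tail domain, was near 0 in all but a single tumor. It measured 4.39 FPKM in combination tumor 1, an estimated 164 fragments, and 0 in the other combination tumors. The vehicle values were 0.055, 0.083 and 0.042 FPKM, the palbociclib values 0.106, 0.029 and 0.052 and the anti-PD-1 values 0, 0 and 0.162. The raised combination mean of 1.46 ± 2.53 FPKM (SD, n = 3) is therefore the value of 1 tumor. Epcam, a surface marker of simple epithelium, also reached 1.38 FPKM in combination tumor 1 and 1.81 in palbociclib tumor 2 and was at most 0.286 in the rest. Other simple epithelium genes were divided. Cldn3, Cldn7 and Prom1 were highest in combination tumor 1, while Spint1 was lowest there, at 0.036 FPKM. Elf3 (0.252 FPKM) and Ovol1 (0.409) lay there within the range of the other tumors. The adipocyte sum was highest in combination tumor 1. The part of these cell types in the Krt19 value was not tested.

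Krt7, a type II keratin of ducts and glands, stayed under 0.5 FPKM. Its values were 0.023, 0.053 and 0.011 FPKM with vehicle, 0.115, 0.023 and 0.049 with palbociclib, 0.413, 0.050 and 0.1005 with anti-PD-1 and 0.153, 0.041 and 0.0072 with the combination. Anti-PD-1 tumor 1 was again the highest, with an estimated 68 fragments, and all arms overlapped. The mean of 0.087 FPKM lay under the filter for testing. Anti-PD-1 tumor 1 was thus the highest tumor for Krt7 and Krt8 and the second highest for Krt18 and Krt80, and it had the lowest Vim value of all tumors. These 4 keratin genes are among the 21 of 39 members on chromosome 15. Krt1, Krt5, Krt6a, Krt6b, Krt77 and Krt79 of the same chromosome were at 0 in anti-PD-1 tumor 1.

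Krt20, a type I keratin of gut lining, urothelium and Merkel cells, was detected in every tumor. It measured 0.268, 1.38 and 1.02 FPKM with vehicle, 0.416, 0.175 and 0.282 with palbociclib, 0.108, 0.413 and 0.952 with anti-PD-1 and 0.227, 0.272 and 0.384 with the combination. The 3 values above 0.5 FPKM came from tumors not given palbociclib, but the arms overlapped. The palbociclib effect was -0.74 on the log2 scale (SE 0.43, adjusted p = 0.346 by limma), moved to -0.46 without anti-PD-1 tumor 3 and rests on estimates of 4 to 41 fragments per tumor. Krt23, another type I simple epithelial keratin, reached 1.07 FPKM in palbociclib tumor 2 and at most 0.160 elsewhere.

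Krt80, a broadly expressed type II keratin of stratified epithelia, was the only other member above 0.5 FPKM in all tumors. It measured 2.22, 0.914 and 1.14 FPKM with vehicle and 2.12, 5.99 and 1.22 with palbociclib. The values were 4.80, 1.69 and 2.16 FPKM with anti-PD-1 and 1.34, 1.25 and 1.81 with the combination. The combination tumors were the most alike, with an SD of 0.301 FPKM against 1.68 for anti-PD-1 and 2.53 for palbociclib. The palbociclib effect was 0.03 on the log2 scale (95% interval -0.80 to 0.87), and its sign turned with quantile normalization or when any of 6 tumors was left out. The interaction was -1.68 (SE 0.76, unadjusted p = 0.0487 and adjusted p = 0.866 by limma), and -1.07 without palbociclib tumor 2 (unadjusted p = 0.125).

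**Figure D2:**
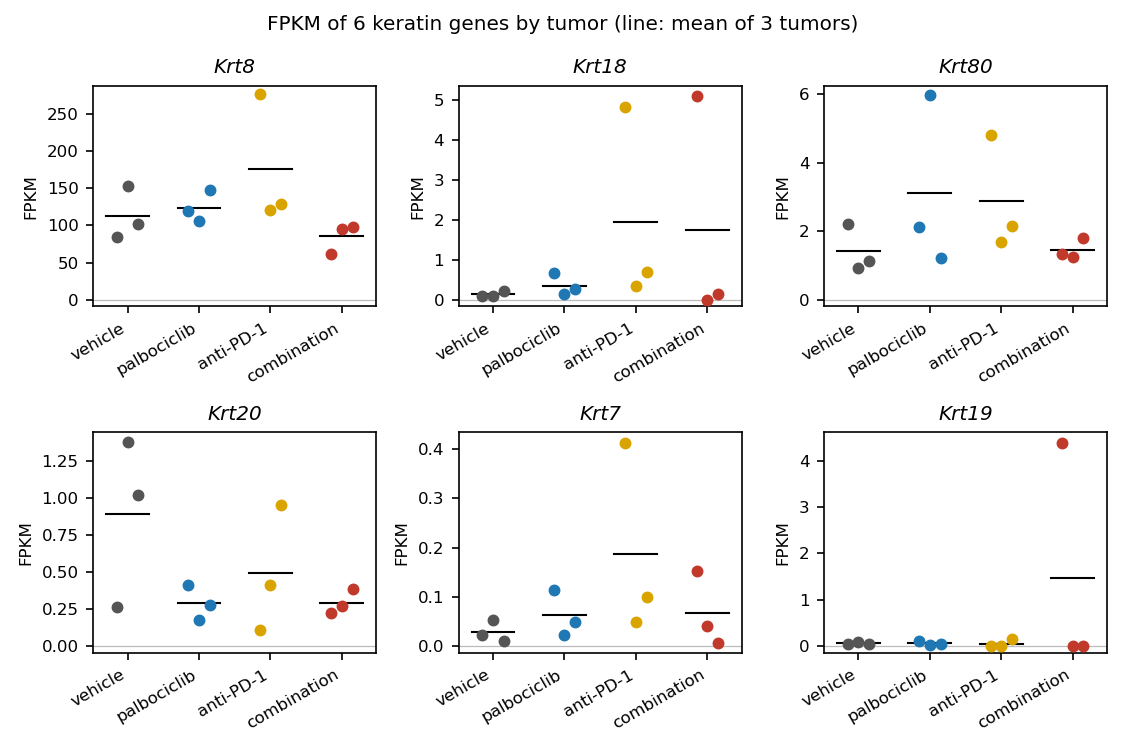
FPKM of Krt8, Krt18, Krt80, Krt20, Krt7 and Krt19 in each tumor by arm, on a separate linear scale for each gene, with a line at the mean of 3 tumors. The highest points of Krt8 (276 FPKM) and Krt7 (0.413) are the same anti-PD-1 tumor, and the Krt19 point at 4.39 is combination tumor 1.

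The epidermal keratins were concentrated in a single tumor of the palbociclib arm. Of the 18 epidermal and stratified members, 16 were highest in palbociclib tumor 2, and 14 of these were there at least 10 times the next tumor or were 0 elsewhere. Among the 14, Krt13 and Krt2 rest on an estimated 2 fragments each (95% counting interval 0.24 to 7.22). Leaving Krt80 aside, the class summed to 651 FPKM in palbociclib tumor 2 and to between 0.0442 and 1.79 in the other 11 tumors. The basal keratinocyte pair led. Krt14 (chr11:100203162-100207548, minus strand) measured 0.070, 178 and 0.378 FPKM in the palbociclib tumors, 0.533, 0 and 0 with the combination, and 0 in every vehicle and anti-PD-1 tumor. Krt5 (chr15:101707070-101712898, minus strand) measured 0.084, 101 and 0.165 FPKM with palbociclib, 0.228, 0 and 0 with the combination, and also 0 in every vehicle and anti-PD-1 tumor. Both basal keratins were therefore above 0 in the same 4 tumors, all of them given palbociclib, and 3 of those carried only traces. The ratio of Krt5 to Krt14 was 0.564 in palbociclib tumor 2, 0.438 in palbociclib tumor 3 and 0.428 in combination tumor 1, and it was 1.20 in palbociclib tumor 1, from an estimated 3 and 2 fragments.

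The keratins of the differentiated layers followed the same tumor. Krt1 measured 44.6 FPKM in palbociclib tumor 2, 0.044 in anti-PD-1 tumor 3 and 0 in the other 10. Krt10 measured 0.062, 0.062 and 0.071 FPKM with vehicle, 0.059, 32.1 and 0.086 with palbociclib, 0.025, 0 and 0 with anti-PD-1 and 0.149, 0.056 and 0.088 with the combination. Krt10 was thus above 0 in 10 tumors, 9 of them at or below 0.149 FPKM, while Krt1 was nearly confined to palbociclib tumor 2, where it exceeded Krt10 by 1.39-fold. Krt77, a type II keratin of sweat gland ducts and, in mice, of epidermis, was at 9.11 FPKM there and at 0 in all others.

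The keratins of hair follicle and stressed epidermis were also high in palbociclib tumor 2, with Krt16 at 76.9 FPKM, Krt6a at 66.9, Krt17 at 64.3 and Krt6b at 59.1. In the other tumors these 4 genes did not exceed 0.347 FPKM, the value of Krt16 in palbociclib tumor 3. Krt6a and Krt6b cannot be cleanly separated, since 51.1% and 39.6% of their 75-base windows occur in other genes, mostly in each other, and 28.9% of the windows of Krt16 do so too. Krt15, a type I basal keratin, reached 9.15 FPKM in palbociclib tumor 2, 0.208 in combination tumor 1 and 0.086 in palbociclib tumor 3 and was 0 in the rest. Krt79, a type II keratin of the hair follicle opening and sebaceous duct, measured 0.088, 8.79 and 0.403 FPKM with palbociclib and 0 in all vehicle tumors. It was 0.058 FPKM in anti-PD-1 tumor 2 and 0.119 in combination tumor 1. Krt78 (0.627 FPKM), Krt24 (0.182), Krt13 (0.068) and Krt2 (0.051), all of stratified epithelia, had their highest values in palbociclib tumor 2 as well, whereas Krt4 peaked at 0.088 in combination tumor 1 and Krt76 was above 0 in combination tumor 2 alone, at 0.025.

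The keratin balance of palbociclib tumor 2 therefore differed from that of the other tumors. Keratin genes summed to 765 FPKM in it, or 0.291% of all FPKM, and to between 75.3 and 287 elsewhere. Krt8 made up 13.8% of this sum in palbociclib tumor 2, 82.3% in combination tumor 1 and 95.4% to 98.2% in the other 10. Type I keratins made up 47.4% of the type I and type II sum in palbociclib tumor 2 and 14.95% in combination tumor 1, where Krt18 and Krt19 were high. In the other 10 tumors they made up 0.426% to 1.88%, so that on the FPKM scale type II keratin RNA had almost no type I counterpart there. Krt8 itself, at 106 FPKM, was not raised in palbociclib tumor 2.

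**Figure D3:**
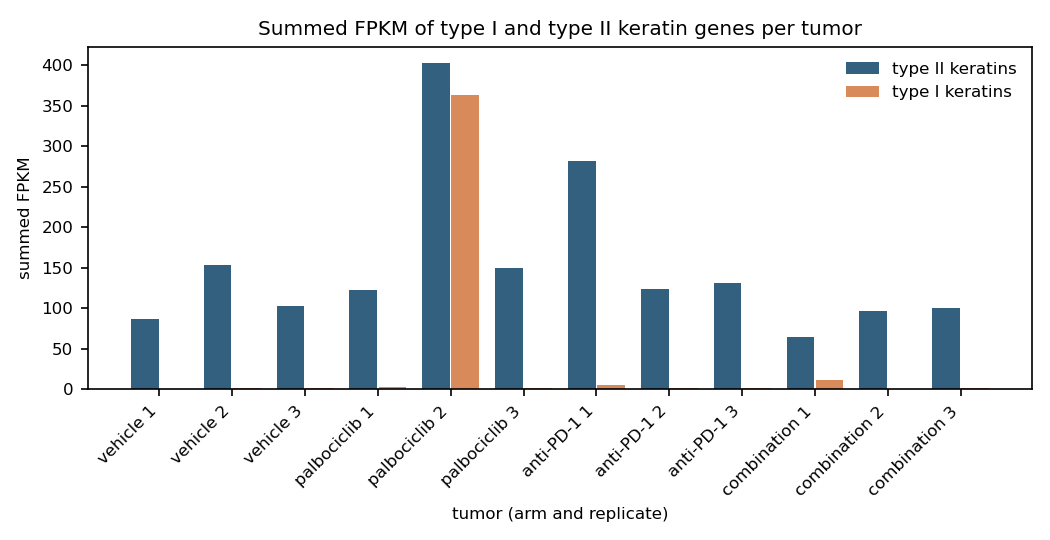
Summed FPKM of type II and type I keratin genes in each tumor, as paired bars from 0. The bars are of like height only in palbociclib tumor 2, where type I genes made up 47.4%, and a type I bar is otherwise clearly visible only in combination tumor 1 (14.95%) and, at 5.08 FPKM, in anti-PD-1 tumor 1.

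Most genes of the keratinocyte that are no keratins were also highest in palbociclib tumor 2. Of the 24 epidermal differentiation genes, 22 were highest in palbociclib tumor 2, including Krtdap at 13.2 FPKM and the cornified envelope precursors Lor at 3.93 and Ivl at 3.08. Lor and Ivl were 0 in the other 11 tumors, and Krtdap was 0 in all but combination tumor 1, at 0.158 FPKM. Sprr1a, Sfn and Sprr1b, the genes of that list with the highest means, were above 0 in every tumor. Sprr1a measured 38.3 FPKM in palbociclib tumor 2 and 3.50 to 18.9 in the others. Tgm1 was highest in vehicle tumor 3 and Sprr3 in combination tumor 1. The summed level of that list was 167 FPKM in palbociclib tumor 2 and 8.85 to 24.1 in the others. Of the 12 basal keratinocyte genes, 10 were highest there, among them Lgals7 at 45.6 FPKM and the hemidesmosome collagen Col17a1 at 8.06, and the list summed to 108 FPKM against 19.8 to 32.6. The part of keratinocytes in the palbociclib arm's keratin values was not tested.

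Keratin filaments are anchored at desmosomes and hemidesmosomes, and these partner genes were followed as lists. Of the 17 desmosome and plakin genes, 14 were highest in palbociclib tumor 2. Dsp, the plakin that binds keratin to the desmosome, measured 8.66 FPKM in it and at most 0.111 elsewhere, and Perp measured 26.1 against at most 0.230. The members with the highest mean were Pkp2, Pkp3 and Perp. Pkp2 ranged from 3.49 to 12.8 FPKM over the 12 tumors and Pkp3 from 3.94 to 7.66, so both plakophilins were present throughout, unlike Dsp. Of 8 hemidesmosome genes, 4 were highest in palbociclib tumor 2, and those with the highest mean were Plec (15.1 to 26.5 FPKM), Dst (12.2 to 21.4) and Itga6 (3.22 to 10.4).

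Of the 15 simple epithelium genes, 11 were highest in palbociclib tumor 2, and the adherens junction gene Cdh1 measured 2.36 FPKM there and at most 0.499 elsewhere. Vim, the filament of mesenchymal cells, ranged from 267 to 422 FPKM and exceeded Krt8 in every tumor but anti-PD-1 tumor 1, where the ratio of Vim to Krt8 was 0.967. The ratio was highest, at 5.45, in combination tumor 1. In the list of 8 other intermediate filament genes, Lmna (61.5 to 92.3 FPKM) and Lmnb1 (25.2 to 44.5) followed Vim in mean level.

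Of the 39 members, 17 had a mean of at least 0.1 FPKM and were tested, and 22 did not pass this filter. Without palbociclib tumor 2 the filter would have left 5 (Krt8, Krt18, Krt19, Krt20 and Krt80), so the other 12 entered the test through that tumor and the tested members are no sample of all keratins. No member was called in any of the 5 comparisons by limma at an adjusted p of 0.05. In palbociclib against vehicle 0.143% of all genes tested were called, and in the palbociclib effect 0.313%. The combination against vehicle called 0.013%, and both anti-PD-1 against vehicle and the interaction called 0%. At an unadjusted p under 0.05, 3 of 17 members stood in palbociclib against vehicle (Krt5, Krt14 and Krt79), beside 13.8% of all genes. It was 1 in the palbociclib effect (Krt79) and 2 in the interaction (Krt8 and Krt80), beside 20.5% and 5.73% of all genes, and 0 in anti-PD-1 and in the combination against vehicle, beside 8.4% and 17%. These counts depended on single tumors. The 3 in palbociclib against vehicle became 12 without palbociclib tumor 3, 11 without palbociclib tumor 1, 1 without vehicle tumor 2, vehicle tumor 3 or anti-PD-1 tumor 3, and 2 without any other tumor. The 1 in the palbociclib effect became 7 without palbociclib tumor 1, 4 without palbociclib tumor 2, 3 without palbociclib tumor 3, and 0 without any other tumor except vehicle tumor 1 and anti-PD-1 tumor 1, where it was 1. The comparisons share their vehicle tumors and are not independent.

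Among the tested members, palbociclib against vehicle gave its widest differences in epidermal keratins. Krt14 differed by 4.61 on the log2 scale (SE 1.97, adjusted p = 0.350 by limma), with a 95% interval of 0.28 to 8.94, and by 1.51 without palbociclib tumor 2. Krt79 differed by 3.24 (SE 1.07, adjusted p = 0.281) and by 1.62 without that tumor, and its palbociclib effect was 1.70 (adjusted p = 0.236), and 0.89 without that tumor. Because all 3 vehicle tumors were at 0 for Krt5, Krt14 and Krt79, these differences depend on the value added before the logarithm and are no bound on the fold. In these 3 genes every palbociclib tumor was above every vehicle tumor, as in 12.9% of the genes tested. For Krt14 and Krt5 in palbociclib tumor 1, this rests on an estimated 2 and 3 fragments. The median over the 12 tested epidermal keratins was 3.09, and over the 5 simple epithelial keratins 0.17, beside 0.07 for all genes tested. The first of these is a description only, because 11 of the 12 genes passed the filter through palbociclib tumor 2. Medians were 1.48 for 14 desmosome and plakin genes, 1.78 for 18 epidermal differentiation genes and 0.42 for 8 hemidesmosome genes, with no gene of these lists called. They too are descriptions only, since 5, 5 and 6 of these genes would pass the filter without palbociclib tumor 2. Lists of other cell types also stood above the median of all genes in this comparison, with 3.55 for 9 adipocyte genes, 1.23 for 11 skeletal muscle genes and 0.94 for 14 leukocyte genes, and no gene of them was called. These levels were uneven within the arms. Adipocyte genes summed to 413, 16.9 and 38.1 FPKM in the palbociclib tumors and 3.37, 1.25 and 4.45 in the vehicle tumors. Skeletal muscle genes summed to 1.92, 7.95 and 200.3 FPKM with palbociclib and 66.8, 1.17 and 1.40 with vehicle. The part of these cell types in the keratin values was not tested.

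**Figure D4:**
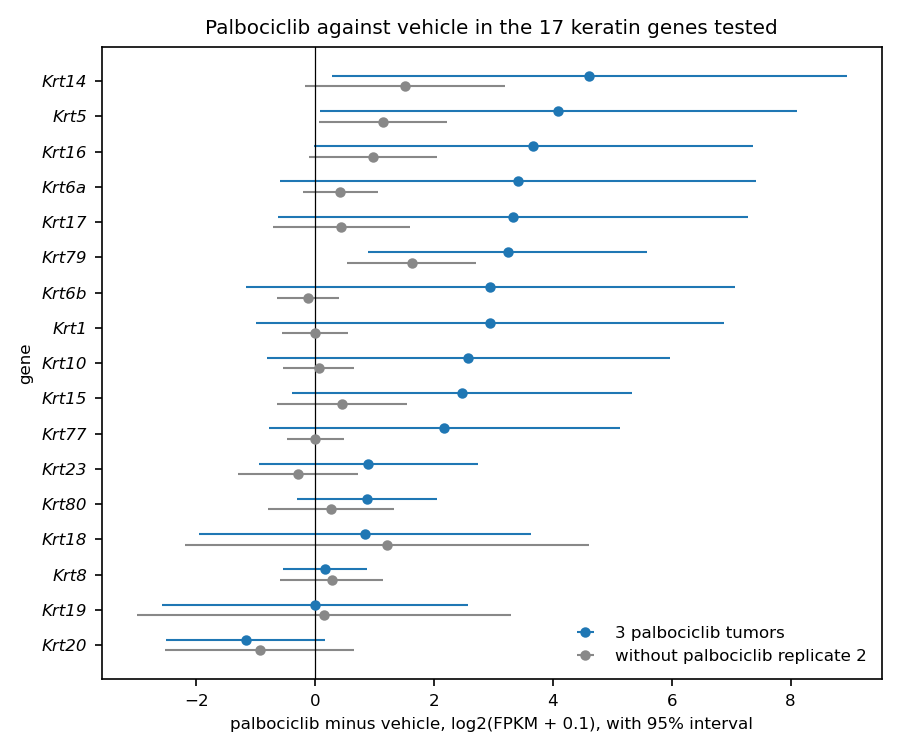
Palbociclib minus vehicle on the log2(FPKM + 0.1) scale for the 17 keratin genes tested, with 95% intervals from limma, for all 3 palbociclib tumors and without palbociclib tumor 2. With that tumor left out, Krt14 moves from 4.61 to 1.51 while Krt8 stays near 0.

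The inner root sheath keratins marked a different tumor of the same arm. In palbociclib tumor 1, Krt71 measured 0.536 FPKM, Krt25 0.279, Krt28 0.266, Krt73 0.228, Krt27 0.199, Krt26 0.033 and Krt72 0.026, from an estimated 19, 9, 7, 8, 5, 3 and 1 fragments in that order. Krt25, Krt27, Krt28, Krt71 and Krt72 were 0 in the other 11 tumors, including palbociclib tumor 2. Krt73 was elsewhere above 0 in vehicle tumor 2 and palbociclib tumor 3 and Krt26 in combination tumor 2, each from 1 fragment. All 7 inner root sheath members were thus highest in palbociclib tumor 1, while Krt74 of the same layer was 0 in all 12 tumors. Krt75, the type II keratin of the companion layer between the outer and inner sheaths, instead reached 0.535 FPKM in palbociclib tumor 2 and at most 0.037 elsewhere.

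Hair shaft keratins were sparse. Krt34 (0.115 FPKM), Krt33a (0.029), Krt83 (0.101) and Krt86 (0.126) were highest in palbociclib tumor 1, from an estimated 3, 1, 3 and 4 fragments. Krt83 was also above 0 in anti-PD-1 tumor 2, at 0.034 FPKM. Krt86 was also above 0 in all 3 anti-PD-1 tumors and in combination tumor 3, at 0.094 FPKM there. Krt86 shares 33.5% of its windows with other genes, mainly Krt81, so its place in the hair shaft class is uncertain in these data. Krt36 reached 0.374 FPKM in combination tumor 1, an estimated 10 fragments, was 0.037 in palbociclib tumor 1 and 0 in the rest. Krt84 measured 0.340 FPKM in palbociclib tumor 2, an estimated 13 fragments, and 0 in the other tumors. Over inner root sheath and companion layer together, 53 fragments (95% counting interval 39.7 to 69.3) were estimated in palbociclib tumor 1 and 26 (16.98 to 38.1) in palbociclib tumor 2, all of them Krt75, against 0 to 3 in each of the others. These intervals cover counting error only.

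**Figure D5:**
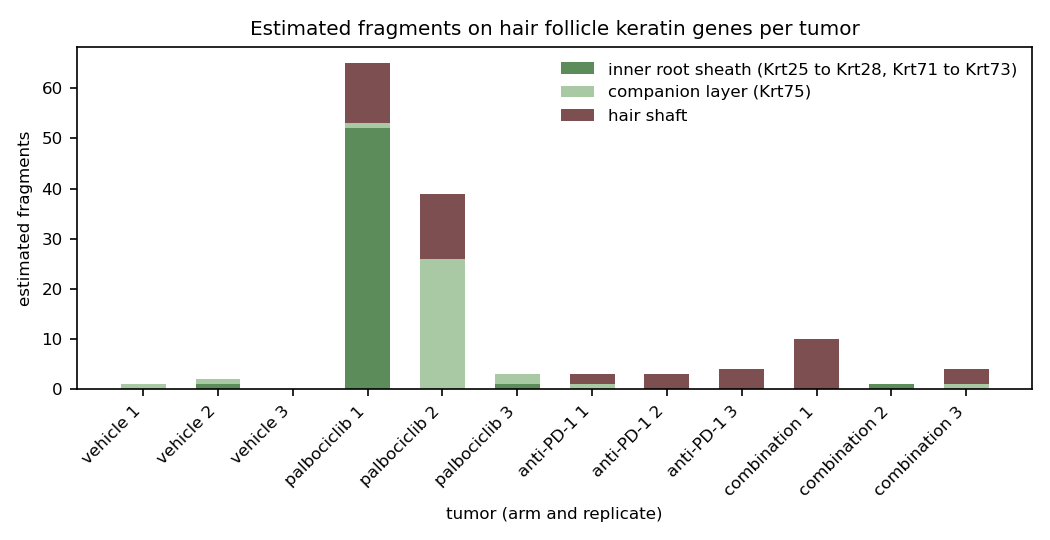
Estimated fragments on inner root sheath keratins, on Krt75 and on hair shaft keratins in each tumor, stacked from 0. Palbociclib tumor 1 carries nearly all inner root sheath fragments, while the bar of palbociclib tumor 2 is made of Krt75 (26 fragments) and Krt84 (13).

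Hair follicle genes outside the keratins were divided between these tumors. Keratin-associated proteins fill the matrix of the hair shaft between keratin filaments. Of the 57 Krtap genes in the tables, 12 were above 0 in any tumor, 10 of them in palbociclib tumor 1, 1 each in vehicle tumor 1 and anti-PD-1 tumor 1, and 0 in the other 9 tumors, palbociclib tumor 2 included. Their sum was 1.46 FPKM in palbociclib tumor 1. Tchh, the trichohyalin of the inner root sheath, was also highest in palbociclib tumor 1, at 0.212 FPKM, followed by palbociclib tumor 2 at 0.127. Of the 31 hair follicle genes followed as a list, 13 were 0 in all tumors and 1 passed the filter. Of the 18 above 0, 6 were highest in palbociclib tumor 1 (Tchh and 5 Krtap genes) and 7 in palbociclib tumor 2 (Tchhl1, Msx2, Hoxc13, Lhx2, Foxn1, Dsg4 and Padi3), the latter at 0.209 FPKM for Foxn1 and under 0.1 for the others. Palbociclib tumor 2 thus held traces of some hair follicle genes, with all 7 inner root sheath members and all Krtap genes at 0. Apart from Foxn1, these traces lay under the 0.134 FPKM that 3 fragments on a gene of 1.5 kb amount to in that tumor. On a longer gene the same FPKM rests on more fragments, and fragments were not estimated for these genes. Krt222, a gene with part of a type I keratin structure, was at most 0.110 FPKM, in combination tumor 1.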

How the data were processed

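RNA-sequencing of 12 tumors, 3 per arm, was used. For each tumor the authors deposited FPKM for 34745 entries (67 repeated symbols were dropped, keeping the higher mean). The submitters' processing notes name HISAT2 and GRCm38 (mm10), and the counting tool, annotation and strand setting are not given in the sources used here. Arms and replicate numbers were taken from the labels. log2(FPKM + 0.1) of genes with a mean of at least 0.1 FPKM (15350) was fitted over all 12 tumors with limma 3.58.1 in R 4.3.3 (eBayes with a trend, 1 mean per arm), with Benjamini-Hochberg adjustment, and the fit was tested on simulated data. Fragments were estimated from the steps between low FPKM values and gene lengths of GENCODE M21, within 0.05 fragments. Step and length agreed within 2% for 24 of 39 members, so single fragment numbers are approximate. Promoter windows are RefSeq GRCm38.p6. Members, gene lists and the members given a test were chosen with earlier results of these data known. Named were all members, and in partner lists the 3 genes of highest mean. Dsp, Epcam, Cdh1, Tchh, Col17a1, Lgals7, Krtdap, Lor, Ivl, Sprr1a, Sfn, Sprr1b, Tgm1 and Sprr3 were added after their values were seen. No 2 libraries were near-identical.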

Additional observations from a re-analysis of the deposited data

How the results depend on the processing

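The count of keratin genes called stayed at 0 in all 5 comparisons under each of 20 alternatives (pseudocounts of 1 and 0.01, a mean filter of 1 FPKM or none, TPM, quantile normalization, no trend, a replicate block, and each tumor left out). Several of these settings called few genes or none, so a count of 0 says little about stability. Over all genes, calls ranged from 1 to 51 in palbociclib against vehicle (22 as reported) and from 0 to 758 in the palbociclib effect (48 as reported), with 758 without anti-PD-1 tumor 1, 692 without vehicle tumor 1 and 264 without combination tumor 2. In the latter comparison 0 genes were called without trend and without vehicle tumor 2, palbociclib tumor 3, anti-PD-1 tumor 2 or 3, or combination tumor 1. The labels give the arms the same replicate numbers, but these name different mice, and deviations of same-numbered tumors correlated at -0.255 to 0.523 (median 0.01, 18 pairs, 8 over 0.1). With the replicate block, which cannot move a difference in this balanced design, 0 members were called, the adjusted p of Krt8 in the palbociclib effect was 0.387 by limma (difference -0.40 in both fits), and calls among all genes went from 48 to 129. The palbociclib effect of Krt80 turned to -0.077 under quantile normalization and ranged from -0.27 to 0.28 when 1 tumor was left out, and the cause was not tested. The number of keratin genes over the filter ranged from 5 to 17 when 1 tumor was left out, an alternative chosen after seeing the data, and it was 5 without palbociclib tumor 2. Krt14 in palbociclib against vehicle ranged from 1.51 to 7.47 and Krt18 in anti-PD-1 against vehicle from 1.07 to 3.13 over the alternatives. At this depth 3 fragments on a gene of 1.5 kb are 0.0986 to 0.134 FPKM, so a keratin of that length listed at 0 cannot be told from one below that level.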

Other observations

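Traces of the epidermal keratins outside palbociclib tumor 2 were not spread evenly over the arms. Summed without Krt80, the class reached 1.79 FPKM in palbociclib tumor 3, 1.46 in combination tumor 1 and 0.381 in palbociclib tumor 1. The other 8 tumors lay between 0.0442 and 0.234 FPKM. The adipocyte sums of the same 3 tumors were 38.1, 997 and 413 FPKM, above those of all 8 others, which had at most 17.4. Palbociclib tumor 2, with 651 FPKM of the class, had an adipocyte sum of 16.9. The part of adipocytes in these traces was not tested.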
